A study of Mus musculus with 4 samples.

Results

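The regions described here are the IgD peaks that lie next to the centromeres of the mouse autosomes. They were chosen by position alone, as every peak on chromosomes 1 to 19 whose summit lies below coordinate 6000000 of the mm10 genome. The first 3 Mb of these chromosomes in mm10 is a gap, so the rule takes the first 3 Mb of assembled sequence on each. It gave 143 of the 11375 peaks of the first list and 813 of the 40628 peaks of the second. Chromatin immunoprecipitation with sequencing was done on pro-B cells, early B-lineage cells of the bone marrow, sorted from WT mice as B220+IgM-CD43+. All 4 libraries came from such cells, with anti-mouse IgD in 2 and mouse IgG, the isotype control, in the other 2, and no animal age is used here. Each peak list sets 1 IgD library against the IgG library of the same number, called pair 1 and pair 2 below. The labels do not say whether the libraries came from separate mice, and expression of defining pro-B cell markers was not analysed here.

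Mouse chromosomes are telocentric: the centromere sits at the very end, and genes are found only on the far side of it. The centromere and its flanks consist of long arrays of satellite repeats, which the assembly represents by the gap. The sequence that follows the gap is often rich in duplicated segments and in families of near-identical genes. IgD is an immunoglobulin class best known as a receptor on the surface of mature naive B cells, and an antibody against it would in this assay enrich the DNA bound to what it recognises. A peak is a stretch where a caller found more IgD fragments than its local background, and the fold is that ratio at the highest point, the summit.

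The sequences below show how alike the annotated promoters under these peaks can be. Each is the 250 bases before a gene start in RefSeq on GRCm38.p6, written 5′ to 3′ on the strand of the gene. Gm7876 (chr14:4709051-4709300, + strand) and Gm9602 (chr14:4776167-4776416, + strand) carry provisional names, and a peak of both lists touches each of them. They are identical at 239 of 250 positions (95.6%) without a gap, and capitals mark the 11 positions at which they differ.
Gm7876: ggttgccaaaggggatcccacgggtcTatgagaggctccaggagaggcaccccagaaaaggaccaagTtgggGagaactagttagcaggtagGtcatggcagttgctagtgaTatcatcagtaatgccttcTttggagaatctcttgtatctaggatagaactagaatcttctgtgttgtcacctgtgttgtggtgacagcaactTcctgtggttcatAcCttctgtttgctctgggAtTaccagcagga
Gm9602: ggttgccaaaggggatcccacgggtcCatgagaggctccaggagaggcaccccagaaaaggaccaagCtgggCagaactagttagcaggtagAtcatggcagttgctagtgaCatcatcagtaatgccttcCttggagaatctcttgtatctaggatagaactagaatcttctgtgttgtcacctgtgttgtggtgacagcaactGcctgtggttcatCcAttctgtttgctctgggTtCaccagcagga
Gm15448 (chr7:3825761-3826010, - strand) and Pira2 (chr7:3845052-3845301, - strand) lie in the cluster of paired immunoglobulin-like receptor genes on chromosome 7. Capitals mark a stretch of 159 positions that they share at different distances from their annotated starts, with 154 positions identical. A peak of both lists touches the promoter of Gm15448, and only pair 1 has a peak at that of Pira2.
Gm15448: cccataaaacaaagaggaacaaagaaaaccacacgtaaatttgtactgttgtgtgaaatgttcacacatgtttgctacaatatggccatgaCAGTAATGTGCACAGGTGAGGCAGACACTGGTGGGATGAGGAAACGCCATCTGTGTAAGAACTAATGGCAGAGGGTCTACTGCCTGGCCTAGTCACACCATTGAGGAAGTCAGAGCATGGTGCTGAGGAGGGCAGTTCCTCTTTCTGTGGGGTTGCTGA
Pira2: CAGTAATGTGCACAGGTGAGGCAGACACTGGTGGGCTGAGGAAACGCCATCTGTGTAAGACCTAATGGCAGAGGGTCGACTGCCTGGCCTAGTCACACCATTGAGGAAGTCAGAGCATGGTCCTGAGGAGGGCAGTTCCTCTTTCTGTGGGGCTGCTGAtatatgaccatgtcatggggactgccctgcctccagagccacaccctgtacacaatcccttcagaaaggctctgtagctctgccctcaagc
C6 (chr15:4726960-4727209, + strand), a complement gene inside the longest run of peaks on chromosome 15, is the contrast. No run of 31 bases in its promoter occurs in the promoter of another gene. It was not aligned to another promoter and is printed without capitals.
C6: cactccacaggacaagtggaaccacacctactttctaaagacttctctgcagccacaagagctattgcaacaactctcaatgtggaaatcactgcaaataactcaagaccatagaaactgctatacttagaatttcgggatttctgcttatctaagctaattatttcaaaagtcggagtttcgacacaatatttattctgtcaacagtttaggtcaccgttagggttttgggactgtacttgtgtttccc

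Counted over all peaks, the windows next to the centromeres were sparser than the rest of the same chromosomes in both lists. Pair 1 had 2.51 peaks per Mb there (95% exact Poisson interval 2.11 to 2.96) against 4.08 on the rest, a ratio of 0.615 (0.518 to 0.726). Pair 2 had 14.3 peaks per Mb (13.3 to 15.3) against 15.96, a ratio of 0.893 (0.832 to 0.958). In pair 1 the low ratio was not seen under every setting: it was 1.06 (0.831 to 1.35) against the far 3 Mb of each chromosome, 1.03 (0.608 to 1.64) for peaks with a fold of at least 5 and 0.958 (0.675 to 1.32) for a −log10 q of at least 5. In pair 2 these were 0.836 (0.761 to 0.919), 0.938 (0.798 to 1.09) and 0.881 (0.785 to 0.986). The windows are 2.37% of the sequence of the 19 chromosomes and hold 1.47% of the peaks of pair 1 and 2.12% of those of pair 2. These intervals cover counting error only. With 1 peak list per pair there is no replicate check within a pair, so the differences from the rest of the chromosomes have no test.

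The low density did not hold on every chromosome. Chromosomes 7, 14 and 15 were singled out after their counts were seen, as those with a ratio above 1 in both lists. They held 82 of the 143 members of pair 1 (57.3%) and 226 of the 813 of pair 2 (27.8%), and their joint ratios were 2.13 (1.68 to 2.66) and 1.60 (1.40 to 1.83). On the other 16 chromosomes the ratio was 0.315 (0.240 to 0.404) in pair 1 and 0.764 (0.702 to 0.828) in pair 2. Chromosome 15 had the highest ratio in both lists, 3.61 with 26 members in pair 1 and 2.20 with 94 members in pair 2. Chromosome 14 followed in pair 1, with 35 members and a ratio of 2.84. In pair 2 it had 58 members and a ratio of 1.25, where the interval of 0.944 to 1.62 includes 1. Chromosome 7 had 21 members and a ratio of 1.22 in pair 1, where the interval of 0.750 to 1.87 includes 1, and 74 members and a ratio of 1.47 in pair 2.

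The remaining chromosomes were low in pair 1 without exception. In that list 16 of 19 ratios were under 1, the interval lay below 1 on 7 chromosomes, and 5 chromosomes had a single member. Pair 2 had 12 of 19 ratios under 1, with the interval below 1 on 8, and its lowest count was 21 members on chromosome 13. All 12 chromosomes that were low in pair 2 were low in pair 1 as well. Chromosome 19 had a ratio of 1.39 (1.03 to 1.84) with 53 members in pair 2 and of 0.662 (0.240 to 1.47) with 6 members in pair 1. The median over chromosomes was 0.509 in pair 1 and 0.822 in pair 2. Across the 19 chromosomes the ratios of both lists had a Spearman correlation of 0.604, a description of points that share the mapped sequence of each chromosome.

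**Figure D1:**
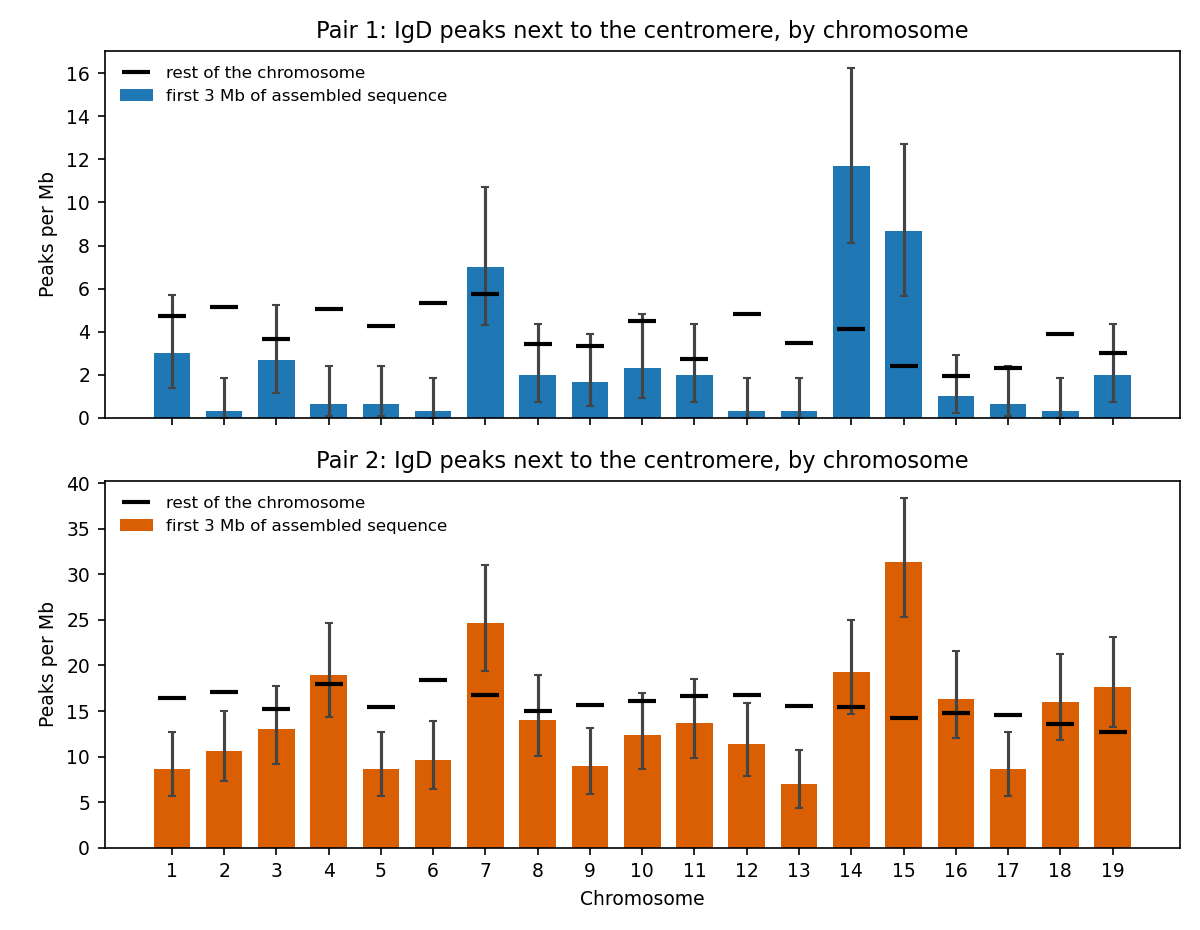
Peaks per Mb in the first 3 Mb of assembled sequence (bars, with 95% exact Poisson intervals) and on the rest of each chromosome (black marks), with pair 1 above and pair 2 below. The bar stands above the mark in both lists only on chromosomes 7, 14 and 15, and in pair 1 it stands below the mark on the other 16.

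Along the windows the density had no steady slope. In steps of 0.5 Mb over the 19 chromosomes, pair 1 had 17, 20, 37, 46, 13 and 10 peaks up to the border of the windows, and pair 2 had 128, 112, 146, 176, 141 and 110. The high middle steps in pair 1 came from chromosomes 7, 14 and 15: without them the same steps held 16, 8, 6, 12, 9 and 10 peaks. Outside the border the next 2 steps held 15 and 66 peaks in pair 1 and 132 and 195 in pair 2, so the rise in both lists came 0.5 Mb beyond the border and not at it. Nearest the assembled end, 5 members of pair 1 and 30 of pair 2 had their summit within 100 kb of it. The member of pair 1 closest to the border inside it had its summit at 5794850 on chromosome 1 with a fold of 4.79, and the first outside was at 6108533 on chromosome 14 with a fold of 3.99. In pair 2 they were at 5989135 on chromosome 17 with a fold of 3.66 and at 6005490 on chromosome 6 with a fold of 4.33.

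**Figure D2:**
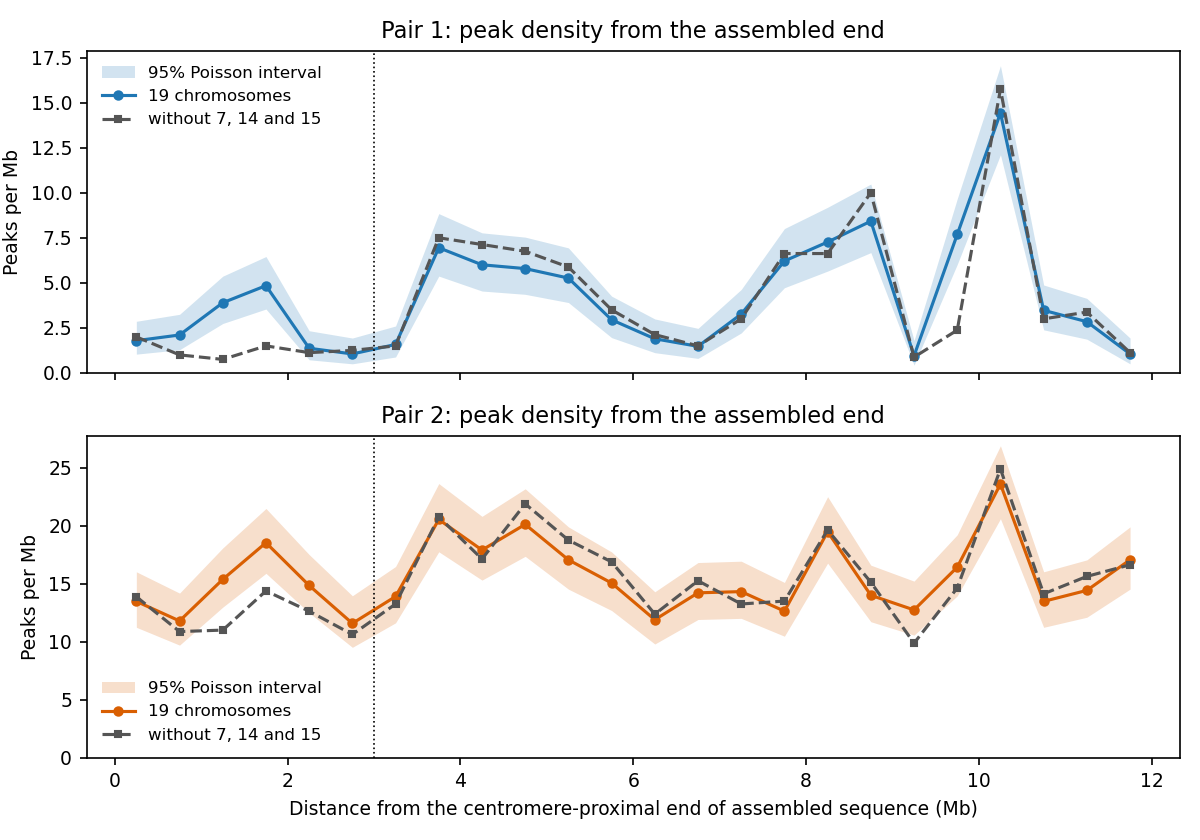
Peaks per Mb in steps of 0.5 Mb against the distance from the centromere-proximal end of assembled sequence, over 19 chromosomes (solid, shaded 95% Poisson interval) and without chromosomes 7, 14 and 15 (dashed). The dotted line is the border of the windows, and in pair 1 the dashed line stays at or below 2 peaks per Mb up to it.

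The typical member was as tall as other peaks. The median fold was 3.46 in pair 1 and 3.78 in pair 2, the same medians as over the rest of these chromosomes. The highest folds were 7.19 among 143 members and 10.7 among 813. They were 23.2 and 36.5 among the 9566 and 37457 peaks elsewhere, where the larger number of peaks alone favours a higher maximum. A fold of at least 5 was more frequent among the members of pair 1, at 12.6% against 7.51% of the peaks outside, and was reached by 20.2% against 19.2% in pair 2. On chromosomes 7, 14 and 15 the shares in pair 1 were 20.7% inside the windows and 8.99% outside. The typical member rested on few fragments. The median number at the summit, solved from the deposited fold and p, was 13 in pair 1 and 14 in pair 2. The quartiles over members were 11 and 16 in pair 1 and 11 and 18 in pair 2. A single count of 13 has a 95% exact Poisson interval of 6.92 to 22.2, and a single count of 14 has 7.65 to 23.5. A −log10 q of at least 5 was reached by 26.6% of the members of pair 1, where 17.1% of the peaks outside did so, and by 38.4% in pair 2, where 38.9% did so outside.

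In width the lists parted. In pair 1, 28 members (19.6%) were 5000 bp or wider, against 8.46% of the peaks outside, and 27 of the 28 lay on chromosomes 7, 14 and 15. In pair 2, 24 members (2.95%) were that wide, against 2.73% outside, and 23 of them lay on those chromosomes. The median widths were ordinary, 892 bp against 841 bp in pair 1 and 768 bp against 770 bp in pair 2. The wide peaks weighed heavily in covered sequence, as 93.0% of the bases under members in pair 1 and 68.4% in pair 2 were on chromosomes 7, 14 and 15. Members joined by gaps of at most 10 kb formed 78 runs in pair 1, of which 63 were single peaks and 6 spanned 20 kb or more. Those 6 held 59 of the 143 members, and 5 of them were on chromosomes 7, 14 and 15. Pair 2 had 602 runs, 493 of them single peaks, and 14 of 20 kb or more with 101 members. Of these 14 long runs, 9 were on chromosomes 7, 14 and 15.

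On chromosome 15 every member of pair 1 lay in 1 run, chr15:4417706-4770660, from inside Plcxd3 into C6. Plcxd3 encodes a protein with a phospholipase C X domain, and C6 encodes a complement protein of the membrane attack complex. The 26 peaks covered 94.2% of the 353.0 kb, with a median width of 8714.5 bp and folds of 2.64 to 7.19. The highest fold of all members of pair 1, 7.19, was at chr15:4417706-4455187 inside Plcxd3, where 26 fragments (17.0 to 38.1) stood over a background of 2.76. Pair 2 had 50 of its 94 chromosome 15 members in the same run, but as narrow peaks, with a median width of 783.5 bp and folds of 2.18 to 6.22, that covered 12.3% of it. Both lists were dense in this stretch, with 7.37 and 14.2 peaks per 100 kb. The rest of the chromosome outside the window had 0.241 and 1.43. The borders of the stretch were set by the members of pair 1, so the density and coverage of pair 1 follow in part from that choice. All 50 peaks of pair 2 and 15 of the 26 of pair 1 overlapped a peak of the other list, which follows in part from the near-complete coverage in pair 1. Of the body of Plcxd3, 76.6% lay under peaks in pair 1 and 12.1% in pair 2; of C6, 51.9% and 5.92%. The 151.5 kb between these genes was covered to 92.0% in pair 1 and 10.1% in pair 2, so the run did not stop at gene borders.

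On chromosome 14 both lists had runs of wide peaks over a family of provisionally named genes, but largely over different stretches. Pair 1 covered 92.8% of chr14:4518261-4847958 with 13 members. The widest of all members was among them, 209.6 kb at chr14:4534038-4743623, with a fold of 6.66 on 24 fragments (15.4 to 35.7), over Gm3239 and Gm7876. Pair 2 covered 96.6% of chr14:4706693-5093523 with 14 members, and pair 1 had 33.7% of that stretch under peaks. Pair 2 covered 98.6% of chr14:5713061-6043683 with 8 members, where pair 1 had no summit and no covered base. It also covered 93.9% of chr14:3018876-3163351 with 10 members, where pair 1 had a single peak on 0.485% of the stretch. Gm26650, which spans the meeting point of both lists, had 49.7% of its body under peaks in pair 1 and 96.6% in pair 2. Gm3239 lay wholly under a peak in pair 1 and to 5.55% in pair 2. Gm3264 and Gm3248 were without a peak in pair 1 and had 90.7% and 96.5% of their bodies covered in pair 2, with highest folds of 7.30 and 7.63. Gm32966, a further provisionally named gene, had 13 summits of pair 1, with folds up to 4.26, and 5 of pair 2, with folds up to 7.03. Over the whole 3 Mb of chromosome 14, 12.3% was covered in pair 1 and 27.7% in pair 2.

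On chromosome 7 the peaks of both lists met in a part of the cluster of Pira and Lilra genes, which encode immunoglobulin-like receptors of leukocytes. From Pirb to Lilra6, 31.9% of the sequence was covered in pair 1 and 15.3% in pair 2. Pirb, Pira1, Gm14548 and Lilra6 had no summit and no covered base in either list. Pair 1 had a run of 9 members over chr7:3789843-3864739, with 86.4% of it covered. Pair 2 had a run of 6 members over chr7:3794324-3829247, with 88.9% of it covered, inside the run of pair 1. Gm15448 had its highest fold at 5.59 in pair 1 and 4.87 in pair 2, with 90.2% and 83.3% of its body under peaks. Pira2, an activating receptor gene, had a fold of 5.06 in pair 1 with 77.5% of its body covered and no summit in pair 2. Further along the cluster Lilra5 had folds of 2.52 and 7.30, and Lair1, an inhibitory collagen receptor gene, had 3.73 and 4.33. Ttyh1, which encodes a membrane protein of the tweety family, had 3.89 and 4.36, and its neighbour Leng8 had 3.25 and 4.36, with the summit of pair 2 counted for both genes.

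**Figure D3:**
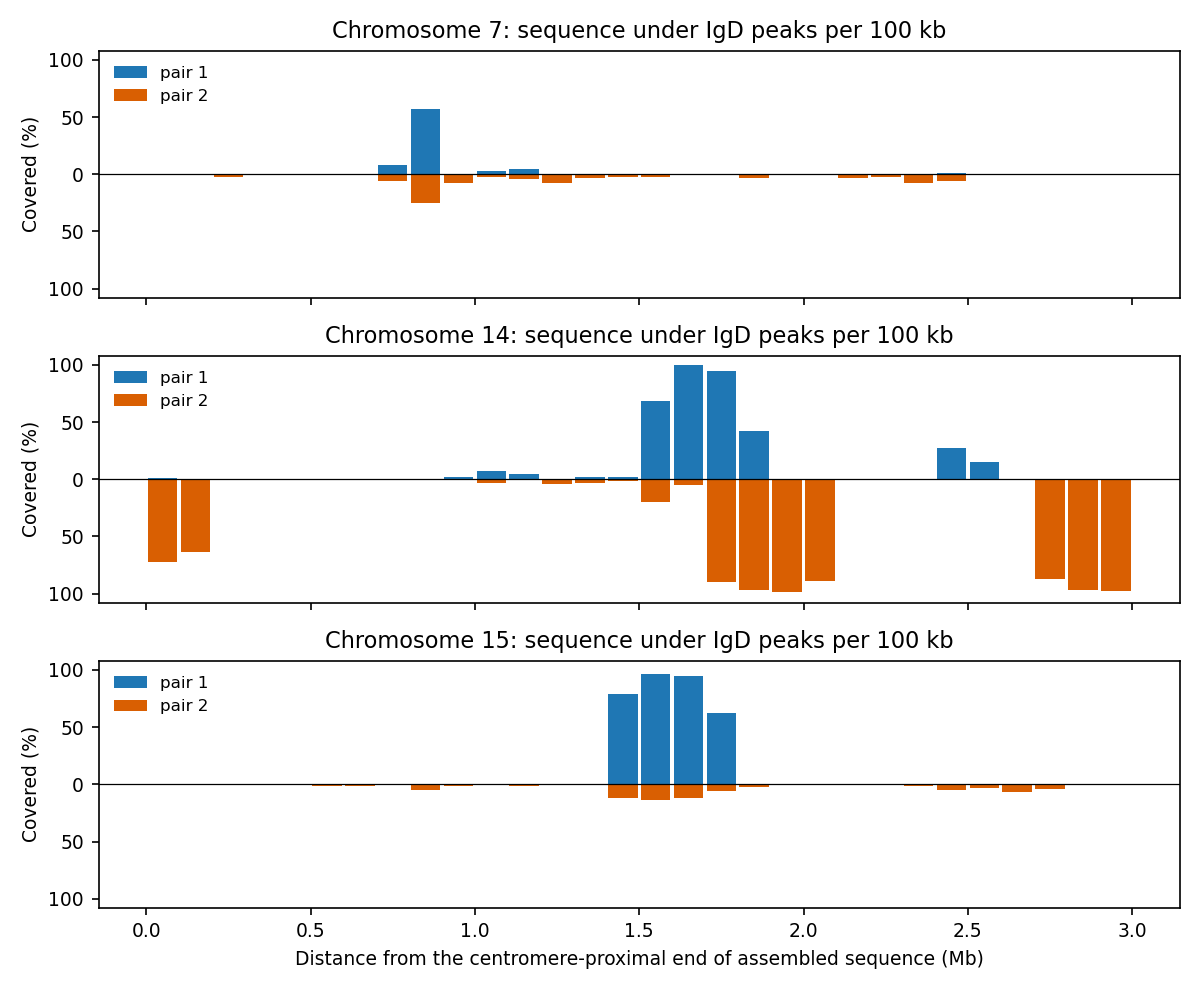
Percent of each 100 kb step that lies under IgD peaks in the first 3 Mb of assembled sequence of chromosomes 7, 14 and 15, with pair 1 drawn upward and pair 2 downward. On chromosome 15 both lists rise over the same 4 steps, and on chromosome 14 the steps filled by pair 2 at 0.0 to 0.2 and 2.7 to 3.0 Mb are nearly or wholly empty in pair 1.

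Next to the gap of chromosome 9 the members were of another kind. The first 50 kb of assembled sequence on chromosome 9 held 4 members of pair 1, and each overlapped a member of pair 2. The first, at chr9:3000470-3002891, had 3578 fragments at its summit over a background of 1963, a fold of only 1.82 with the highest −log10 q of all members, 227. Its partner in pair 2, at chr9:3001372-3003086, had 944 fragments over 620 and a fold of 1.52. The second, at chr9:3005672-3017150, had 542 fragments over 309 and a fold of 1.75, and its partner 435 over 319 and a fold of 1.36. The other two of pair 1 had folds of 1.58 and 1.54, with partners at 1.43 and 1.56. Elsewhere the background at the summit was low, at the lowest value of its list, 2.756 in pair 1 and 2.699 in pair 2, for 107 of the 143 and 551 of the 813 members. These 4 peaks of each list were the only members with a background of 30 or more, and the next highest were 19.8 in pair 1 and 21.7 in pair 2. Local read depth thus moved with this result, and its part in it was not tested. Other members as close to a gap were ordinary: in pair 2 a peak 5.95 kb from the gap of chromosome 5 and another 8.54 kb from that of chromosome 8 each had a fold of 3.24 over a background of 2.70. The nearest protein-coding gene to the peaks of chromosome 9, Alkbh8, a tRNA methyltransferase gene, was 302.3 kb or more from each of the 4 summits of pair 1.

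**Figure D4:**
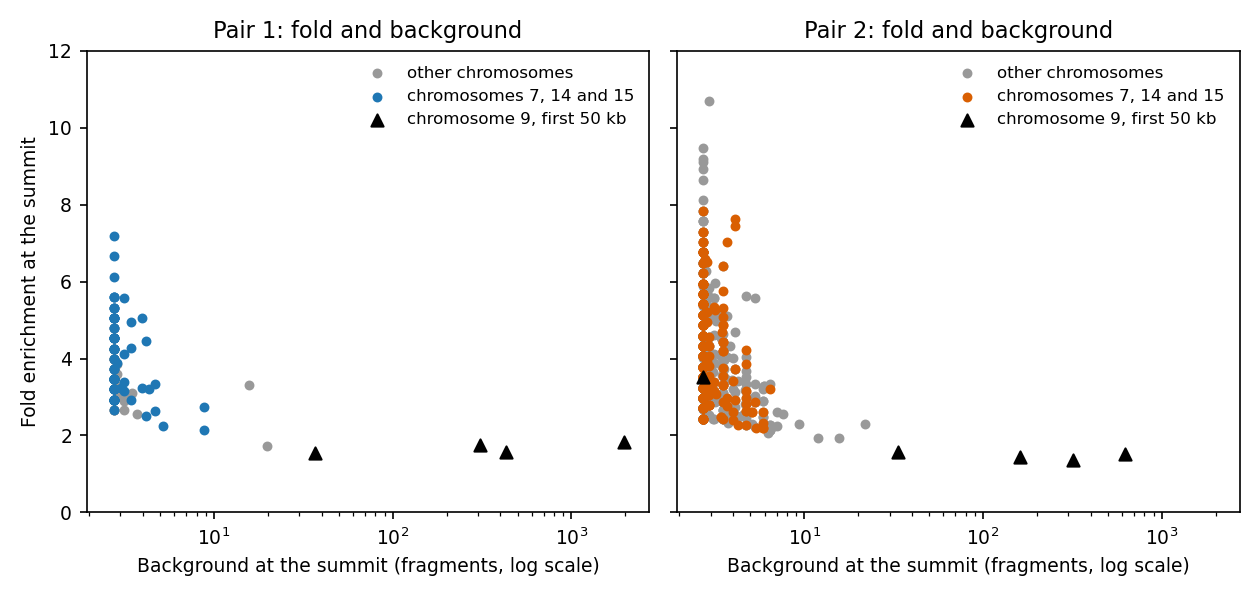
Fold at the summit against the background at the summit (fragments, log scale) for the 143 members of pair 1 and the 813 of pair 2, with chromosomes 7, 14 and 15 in colour and the first 50 kb of chromosome 9 as triangles. In each list 4 triangles stand alone at a background above 30 with folds under 2, a further triangle of pair 2 sits at the lowest background, and the taller peaks line up at the lowest background.

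Overlap between the lists came almost wholly from these few places. By at least 1 bp, 43 of the 143 members of pair 1 (30.1%, 95% Wilson interval 23.2 to 38.0) overlapped a peak of pair 2, against 27.5% of the peaks outside. In pair 2, 81 of 813 (9.96%, 8.09 to 12.2) overlapped a peak of pair 1, against 6.15% outside. On chromosomes 7, 14 and 15 the shares were 43.9% (33.7 to 54.7) and 32.3% (26.5 to 38.6), against 27.7% and 7.94% outside their windows. On the other 16 chromosomes they were 11.5% (5.67 to 21.8) and 1.36% (0.692 to 2.67), below the 27.4% and 5.84% outside the windows of the same chromosomes. The overlapping members there were 7 of 61 in pair 1, the 4 of chromosome 9 and 1 each on chromosomes 4, 10 and 16. The peak on chromosome 10, at chr10:3110133-3112336, reached 3.31 times background in pair 1 and 1.93 times in pair 2. Under stricter rules 12 members of pair 1 (8.39%) overlapped by 50% of both peaks, against 3.86% of the peaks outside. Summits within 200 bp were found for 6 members (4.20%), against 3.0% outside. In pair 2 the shares were 1.48% against 0.985% by the first rule and 0.738% against 0.766% by the second. In bases, 237.7 kb lay under peaks of both lists, 28.5% of the member bases of pair 1 and 16.1% of those of pair 2, counting only bases inside the border. Chromosome 14 held 64.1% of these shared bases, chromosome 15 17.8%, chromosome 7 10.8% and chromosome 9 6.22%.

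Of the 610 protein-coding genes in the windows, 50 (8.20%) had a summit of pair 1 inside them or within 3000 bp of an end, against 6.32% of the genes elsewhere. In pair 2, 216 (35.4%) had one, against 38.8% elsewhere, and 28 (4.59%) had one in both lists, against 4.31%. These shares are close to the background. The provisionally named genes had a summit in 14 of 78 in pair 1, 24 in pair 2 and 8 in both, and 50 of the 78 lie on chromosomes 7, 14 and 15. Vomeronasal receptor genes, which encode pheromone receptors, had a summit in 0 of 14 in pair 1 and 4 in pair 2, zinc finger genes in 1 and 3 of 12, and the 2 olfactory receptor genes in neither list. By position of the summit, 51.0% (42.9 to 59.1) of the members of pair 1 lay inside a protein-coding gene against 26.9% of the peaks outside, and 39.9% (36.5 to 43.3) in pair 2 against 39.1%. Without chromosomes 7, 14 and 15 the share in pair 1 was 39.3% (28.1 to 51.9). Close to a gene end, within 3000 bp, were 20.3% (14.5 to 27.6) in pair 1 against 6.85% outside, and 13.2% (11.0 to 15.7) in pair 2 against 9.22%. Without chromosomes 7, 14 and 15 these shares were 9.84% (4.59 to 19.8) in pair 1, an interval that includes 6.85%, and 12.4% (10.0 to 15.4) in pair 2. Shares by position were not adjusted for gene density, with 610 protein-coding genes in the 57 Mb of the windows and 19946 in the other 2346 Mb.

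A summit in the same gene was not the same place in most of the 28 genes. How often this holds for genes outside the windows was not counted. On chromosomes 7, 14 and 15, 13 genes had a summit in both lists; in 7 of them peaks of the lists overlapped, and the closest summits were a median of 1.21 kb apart. The 7 were Plcxd3, C6, Gm15448, Gm32966, Gm3239, Gm26650 and Gm9602. On the other 16 chromosomes 15 genes had a summit in both lists, and in 0 of them did the peaks overlap. Only 7 of the 61 members of pair 1 on these chromosomes overlapped a peak of pair 2 at all. Distances were not adjusted for gene length, which was 7300 bp for Gm9602 and 576868 bp for Cdk14. The closest summits in those 15 were a median of 15.8 kb apart, from 1.17 kb in Limk2, a LIM kinase gene, to 107.3 kb in Cdk14, a cyclin-dependent kinase gene. Gucy1a2, a subunit gene of soluble guanylate cyclase, had folds of 5.33 and 6.76 with the closest summits 90.6 kb apart. Ppp1r14c, which encodes an inhibitor of protein phosphatase, had folds of 4.79 and 7.57 at 8.14 kb. Insr, the insulin receptor gene, had 3.46 and 6.22 at 33.5 kb, and Syne1, the gene of a giant protein of the nuclear envelope, had 3.46 and 7.57 at 10.4 kb. Esr1, the estrogen receptor gene, had 2.93 and 5.41 at 18.4 kb, and Pacs1, a sorting protein gene, had 4.53 and 4.60 at 15.8 kb. Atp6v1h, Kremen1, Urgcp, Slx4 and Ppp1r9a had folds of 3.20 to 4.26 in pair 1 and 2.70 to 4.05 in pair 2.

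The tallest members of pair 2 lay away from the long runs. The highest fold, 10.7 on 41 fragments (29.4 to 55.6), was at chr19:5740796-5741537, on the end of Ltbp3, a gene of a latent TGF-beta binding protein. The next, at chr12:3197339-3197824, had a fold of 9.46 on 34 fragments and lay 49.9 kb from Rab10, a small GTPase gene. A fold of 9.19 followed at chr19:3421083-3422117, 7.28 kb from Gal, the galanin gene, and of 9.11 at chr17:4635420-4635915, 358.6 kb from Arid1b. Inside Rgs20, a gene of G protein signalling, the highest fold was 8.92 on 32 fragments. None of these 5 peaks overlapped a peak of pair 1. All 5 lay on the other 16 chromosomes, where only 1.36% of the 587 members of pair 2 did so, against 5.84% outside the windows. The lack of overlap thus does not set the tallest members apart. Zfp438 with 8.65 and Ppl with 7.84, the gene of a desmosomal protein, had a summit in pair 2 alone, and Chka, the choline kinase gene, had 4.53 in pair 1 alone.

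The windows hold more promoters that are copies of each other than the rest of the genome does, and most of these are on chromosome 14. A promoter was called multi-copy when at least 50% of its runs of 31 bases, on either strand, occur in the promoter of another gene. Of the 873 RefSeq promoters of 300 bases in the windows, 88 (10.1%, 8.25 to 12.3) were multi-copy, against 3.16% of the 30523 elsewhere. On chromosome 14 they were 69 of 89 (77.5%), on chromosome 7 5 of 101, on chromosome 15 0 of 29, and on the other 16 chromosomes 14 of 654 (2.14%). Gm7876 and Gm9602, printed above, share runs of 31 bases with the promoters of 35 and 36 other genes, all of them on chromosome 14. Gm15448 and Pira2 do so with 5 genes each, all of them on chromosome 7.

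Counted over all windows together, peaks touched multi-copy promoters more often than others. Pair 1 peaks touched 17 of the 873 promoters (1.95%), against 1.29% elsewhere, and pair 2 peaks 48 (5.50%), against 3.53%. Of the 88 multi-copy promoters 10.2% were touched in pair 1 and 20.5% in pair 2, and of the 785 others 1.02% and 3.82%. Chromosome 14 holds 69 of the 88, and 10.1% and 30.3% of all its 89 promoters were touched. On the other 16 chromosomes 0.612% and 2.45% were. In pair 2 the 27 promoters touched on chromosome 14 outnumber the 18 multi-copy ones touched in all windows. The contrast inside the windows was thus not set apart from that between chromosome 14 and the others. Outside the windows, 16.5% and 16.7% of the multi-copy promoters and 0.792% and 3.10% of the others were touched. Both lists touched 4 promoters in the windows, those of Gm3239, Gm7876, Gm9602 and Gm15448, and all 4 were multi-copy. Copies are neighbours and lie under the same wide peaks, so these promoters are not independent observations. Where reads fit several copies, the place they were counted depends on the alignment, and how such reads were treated is not stated in the labels. The part of sequence copies in the runs on chromosomes 7 and 14 was not tested.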

How the data were processed

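Libraries from WT pro-B cells, 2 with anti-IgD and 2 with mouse IgG, were described through 2 peak lists, 1 for each IgD library against the IgG library of the same number. The submitters' processing notes name HISAT2, MACS2, ChIPseeker and the build mm10, with no versions. The treatment of duplicates and multi-mapping reads, excluded regions and reads per library are not given in any source used here. The fold at the summit, a ratio, was deposited by the authors as their caller gave it, and so were the −log10 p and the −log10 q. The deposited integer score was not used.

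Counts of members have exact Poisson intervals and shares have Wilson intervals, at 95%; both cover counting error only. Fragments and background at each summit were worked out from the deposited fold and p, with 1 added to both fragments and background in the fold and p read as a Poisson upper tail, which assumes unscaled IgD fragments. All 956 members had a solution. The rest of a chromosome ran from coordinate 6000000 to its outermost peak or gene. Gene positions and promoters came from RefSeq tables on GRCm38.p6. The gene table has no strand or exons, so either end of a gene was used, and 340 genes placed at or below 3 Mb were left out. The promoter table holds none on chromosome 18. No genome sequence was used, so gaps and repeats under the peaks were not analysed here.

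The members and lists were chosen with earlier results of these data known. Named were genes with a summit in both lists, the 10 genes of highest fold in each list, and in each list the 5 highest, 5 widest and 5 nearest peaks to the assembled end. Not every gene this rule gives is reported here. No test between groups was run, as each pair gives 1 list. Alternatives were other borders, other reference stretches, stricter q, fold, width and overlap, equal list lengths, each pair alone, and leaving out the chromosome with most members. Leaving out chromosomes 7, 14 and 15, or the first 50 kb, was chosen after seeing the data. The procedures were tested on simulated data. Software was Python 3.11.15, Biopython 1.88, scipy 1.17.1, pandas 2.3.3, numpy 2.4.6 and matplotlib 3.10.9.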

Additional observations from a re-analysis of the deposited data

How the results depend on the processing

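Over the 2 pairs the mean density ratio was 0.754 ± 0.197 (SD, n = 2), and it ran from 0.615 to 0.893 with either pair left out. No paired analysis was possible because each pair gives a single peak list and the results come from no test. Of 75 alternatives, 36 were counted as leaving a value the same and 39 as moving it. For density ratios, median folds and overlap shares, a move was a change beyond the spread of the value. The shares of covered bases have no such spread, and every alternative for them was counted as a move. The count of 39 is therefore not a count of changes beyond a spread. The low density of pair 1 depended on the border and the threshold: the ratio was 0.779 with a border at 5 Mb, 0.894 at 9 Mb, 1.06 against the far 3 Mb of each chromosome, 0.958 at a −log10 q of at least 5, 1.03 at a fold of at least 5 and 0.515 for peaks narrower than 2000 bp. It was 0.491 without chromosome 14 and 0.315 without chromosomes 7, 14 and 15. In pair 2 the ratio was 0.995 at 9 Mb, 0.819 against the next 3 Mb, 0.830 without chromosome 15 and 0.764 without chromosomes 7, 14 and 15. The mean of the pairs was 0.985 at a fold of at least 5 and 0.539 without those chromosomes. At the stricter q the median folds were 4.87 and 5.14, as low peaks were removed.

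The share of pair 1 members that overlapped pair 2 was 8.39% with 50% reciprocal overlap, 4.20% for summits within 200 bp, 6.06% for peaks narrower than 2000 bp, 43.5% at 9 Mb and 11.5% without chromosomes 7, 14 and 15. For pair 2 these were 1.48%, 0.738%, 0.774%, 15.6% and 1.36%, and it was 6.73% at the stricter q, 14.1% at 5 Mb and 4.31% without chromosome 15. The members' share of all covered bases, 2.81% in pair 1, was 3.44% at the stricter q, 1.74% without chromosome 14, 2.61% at 5 Mb, 0.265% without chromosomes 7, 14 and 15 and 2.75% without the first 50 kb. In pair 2, at 2.72%, it was 3.17%, 2.64% without chromosome 15, 1.61%, 1.06% and 2.64%. Apart from the effect of fewer peaks or chromosomes, the cause was not tested. A median of 13 or 14 fragments at a summit limits the precision of each fold.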
